A study of Mus musculus with 6 samples.

Results

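Glycolysis and hypoxia genes were described in mouse haematopoietic stem cells from beta-catenin floxed, Vav-Cre positive mice and from controls. The set held 35 genes: glucose transporters, glycolytic enzymes, genes of lactate handling, pyruvate dehydrogenase kinases, the hypoxia-inducible factor gene Hif1a with 2 of its prolyl hydroxylases, and further targets of the factor. A gene was measured by the probe sets annotated to it and to no other gene, and its value on an array was the median over those probe sets that passed a filter on dim signal. Of the 35 genes, 33 had such a value, among 14586 genes in all. Members were chosen by gene name, with earlier results of these data known.

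The 6 arrays carried RNA of bone marrow cells sorted as KLS CD34-. This gate keeps cells that bear Kit and Sca-1 but lack lineage markers and CD34, and enriches long-term stem cells. Cells had been lysed on sorting, and 100 ng of total RNA was labelled per array. In 3 arrays, here called floxed, beta-catenin was floxed and the mice were positive for Vav-Cre, a transgene whose promoter is active in blood-forming cells. The other 3 arrays were controls, labelled by that word alone, so whether they carried floxed alleles or the transgene is not given in the labels used here. Age, sex and pooling of animals are not given either, nor whether replicates came from separate animals, so the spread behind each p-value may be technical. Values are log2 expression values, and different genes are not compared in level because their probes differ.

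Glycolysis splits glucose into pyruvate in a chain of cytosolic enzymes and yields ATP without oxygen. Pyruvate is then reduced to lactate or enters mitochondria through pyruvate dehydrogenase, which the pyruvate dehydrogenase kinases switch off. When oxygen is low, the prolyl hydroxylases no longer mark HIF-1alpha for destruction, and the factor switches on glucose transporters, glycolytic enzymes and pyruvate dehydrogenase kinases. Long-term stem cells of the bone marrow are known for a glycolytic state in a niche of low oxygen, and loss of HIF-1alpha or of pyruvate dehydrogenase kinases in mice impairs their quiescence.

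The targeted gene was checked first. Of 16 Ctnnb1 probe sets above the filter, 5 passed the test (limma adjusted p from 1.19e-05 to 0.00137). On these 5 the log2 values were 3.74 to 7.997 in floxed arrays and 10.19 to 12.11 in control arrays. Pearson correlations of arrays, taken across genes and with genes not independent of each other, were 0.962 to 0.972 between floxed arrays and 0.880 to 0.934 between control arrays, so the controls were the more variable group. Of the gate's markers, Kit averaged 11.73 in floxed and 11.84 in control arrays, and Ly6a, the gene of Sca-1, averaged 11.275 and 11.29. Hlf, a transcription factor gene of stem cells and not part of the gate, averaged 11.63 in floxed and 11.65 in control arrays. Averages of the 11 stem cell genes tested ran from 8.23 (Slamf1) to 11.73 (Kit) in floxed arrays. In control arrays they ran from 8.004 to 11.84, for the same genes. Cd34 RNA went against the name of the gate, with averages of 12.65 in floxed and 12.68 in control arrays. The progenitor gene Flt3, which the gate does not name, averaged 11.83 in floxed and 11.82 in control arrays. The arrays measured RNA, while the gate reads protein on the cell surface. Detection calls were not used here, so no gene is called present or absent.

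The hypoxia response element is the short core that HIF binds, written here as ACGTG or GCGTG and searched on both strands. The promoters below run from 250 bases before to 50 bases after a gene's start, from RefSeq on GRCm38.p6, and capitals mark each match. P4ha1, Pkm, Pdk1 and Pgk1 are shown because their 3 floxed arrays all lay above their 3 control arrays, and Ldha is shown as a much-studied HIF target whose arrays overlapped. Where RefSeq lists several starts, the first one listed is shown.
P4ha1, chr10:59323046-59323345, plus strand: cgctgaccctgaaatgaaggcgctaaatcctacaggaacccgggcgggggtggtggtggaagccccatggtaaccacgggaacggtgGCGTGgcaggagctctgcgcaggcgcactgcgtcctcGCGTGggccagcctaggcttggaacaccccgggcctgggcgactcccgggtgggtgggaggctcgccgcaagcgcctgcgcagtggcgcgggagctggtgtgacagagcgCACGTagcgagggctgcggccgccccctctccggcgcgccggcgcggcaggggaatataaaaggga
Pkm, chr9:59656326-59656625, plus strand: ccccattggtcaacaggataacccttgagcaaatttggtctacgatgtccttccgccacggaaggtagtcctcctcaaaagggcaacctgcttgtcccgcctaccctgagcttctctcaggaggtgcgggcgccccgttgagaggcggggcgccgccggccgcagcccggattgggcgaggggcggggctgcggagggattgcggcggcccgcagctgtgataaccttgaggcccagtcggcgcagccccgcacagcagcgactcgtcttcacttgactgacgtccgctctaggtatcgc
Pdk1, chr2:71872974-71873273, plus strand: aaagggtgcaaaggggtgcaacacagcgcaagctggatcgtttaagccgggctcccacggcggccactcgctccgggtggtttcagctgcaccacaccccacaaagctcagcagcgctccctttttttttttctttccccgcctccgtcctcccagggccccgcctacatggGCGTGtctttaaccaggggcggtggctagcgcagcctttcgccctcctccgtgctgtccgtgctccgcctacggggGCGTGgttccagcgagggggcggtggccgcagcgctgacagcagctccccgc
Pgk1, chrX:106186850-106187149, plus strand: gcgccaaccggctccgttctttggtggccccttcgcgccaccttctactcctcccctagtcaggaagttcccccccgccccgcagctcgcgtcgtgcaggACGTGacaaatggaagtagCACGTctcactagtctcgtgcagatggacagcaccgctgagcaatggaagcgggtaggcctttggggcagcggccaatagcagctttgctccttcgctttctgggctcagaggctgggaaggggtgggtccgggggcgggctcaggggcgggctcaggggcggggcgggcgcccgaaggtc
Ldha, chr7:46845554-46845853, plus strand: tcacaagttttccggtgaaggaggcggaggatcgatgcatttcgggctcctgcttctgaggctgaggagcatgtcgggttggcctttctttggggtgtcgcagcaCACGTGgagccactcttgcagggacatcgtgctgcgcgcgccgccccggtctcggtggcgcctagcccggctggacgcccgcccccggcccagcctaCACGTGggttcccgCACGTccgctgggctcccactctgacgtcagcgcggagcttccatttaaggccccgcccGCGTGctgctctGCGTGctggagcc

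The P4ha1 promoter held 3 matches, Pgk1 and Pdk1 held 2 each, Pkm held 0 and Ldha held 7, where each palindromic CACGTG, the E-box core, counts as a match on both strands. RefSeq listed a promoter for 32 of the 35 members, and 26 of these (81.2%) held a match, against 59.6% of the promoters of all tested genes and 43.8% of all promoters listed. The 32 include Adm and Ankrd37, which were not among the tested genes and held matches. HIF targets were put in the set by choice, so the members' share is not independent of that choice. ACGTG alone was in 59.4% of the members' promoters and in 24.3% of those of all tested genes, and GCGTG was in 56.2% and 48.4%. A match is a description of these letters and not a binding site. Among members tested, the 24 genes with a match had a median log2 fold change of -0.014, and the 6 genes without had -0.032. Over all tested genes the same medians were 0.034 with a match and -0.0035 without.

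No member passed the test between floxed and control arrays. In limma, 0 of 33 members had an adjusted p under 0.05 (smallest adjusted p = 0.999), beside 0% of all 14586 genes. At an unadjusted p under 0.05 there were 2 members, Pkm and P4ha1, both higher in floxed arrays, which is 6.06% of the members beside 3.7% of all genes (2.43% higher and 1.28% lower). Of the 33 members 15 had a positive and 18 a negative log2 fold change, with a median of -0.018, where all genes had a median of 0.018 and 54.2% positive. The 95% confidence interval lay within 0.5 log2 of 0 for 20 of the 33 members (60.6%), beside 45.8% of all genes, and within 1 log2 of 0 for 31 (93.9%), beside 97.1% of all genes. The 2 exceptions at 1 log2 were Bnip3 and P4ha2. In bulk samples such as these, fewer cells of a type and less RNA per cell cannot be told apart.

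**Figure D1:**
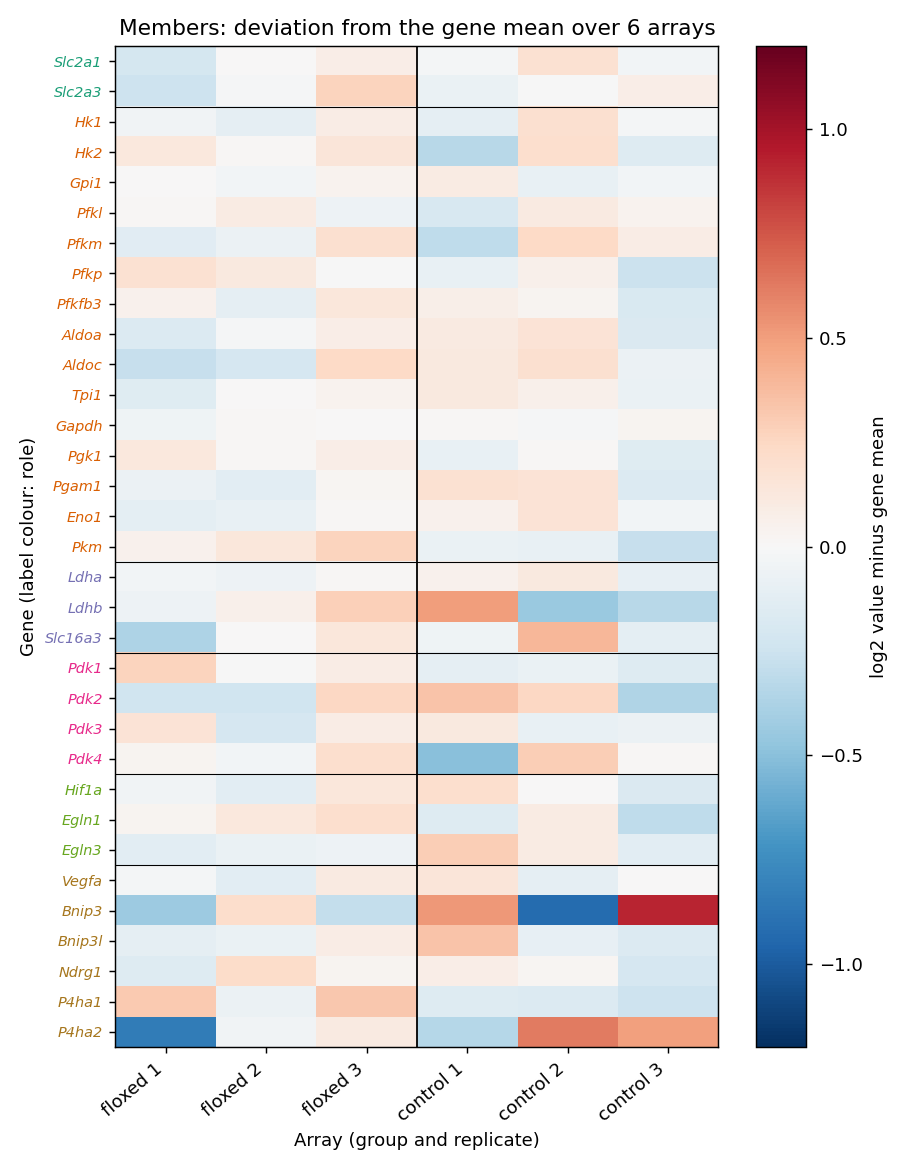
Each row is one of the 33 members with a value, coloured by role, and each column one array, with floxed arrays left and control arrays right of the line; colour is the log2 value minus the gene's mean over the 6 arrays. Most rows stay close to their mean, and the widest spread is that of Bnip3, whose control arrays ran from 8.41 to 10.25.

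All 3 floxed arrays lay above all 3 control arrays for 4 of the 33 members (12.1%), beside 5.57% of all genes, and without regard to direction the groups did not overlap for 8.44% of all genes. For 0 members all floxed arrays lay below the controls, beside 2.87% of all genes. With 3 against 3 arrays the exact two-sided permutation test gives p = 0.1 for each of the 4, the smallest it can give. These 4 genes, Pgk1, Pkm, Pdk1 and P4ha1, are described with their roles below, and no test was run on the list as a whole.

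Glucose enters blood cells through facilitative transporters. Slc2a1, the gene of the widespread transporter GLUT1, had log2 values of 9.74, 9.95 and 10.03 in floxed arrays and 9.93, 10.13 and 9.91 in control arrays. The groups overlapped, and the log2 fold change was -0.087 (SE 0.14, 95% interval -0.39 to 0.22, limma adjusted p = 0.999). Slc2a3, the gene of the high-affinity transporter GLUT3, had 9.73, 9.97 and 10.25 in floxed arrays and 9.91, 9.98 and 10.06 in control arrays. Its floxed arrays spanned the control arrays on both sides. Of its 12 probe sets, 10 were lower and 2 higher in floxed arrays, although the median over probe sets was level between the groups.

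The 15 glycolytic enzyme genes, from hexokinase to pyruvate kinase and with the regulator Pfkfb3, did not move together. Of them 7 had a positive and 8 a negative log2 fold change, from -0.16 (Aldoc) to 0.30 (Pkm), with a median of -0.011. Over the 16 alternative settings that median ran from -0.056 (array weights) to 0.047 (without control replicate 2), and its sign changed in 5 of them. Hk2, the inducible hexokinase that traps glucose as its phosphate, had 8.68, 8.57 and 8.70 in floxed arrays and 8.22, 8.76 and 8.40 in control arrays. One control array lay above all floxed arrays and the other two below them (log2 fold change 0.19, SE 0.17, limma adjusted p = 0.999). All 12 Hk2 probe sets above the filter were higher in floxed arrays in their group means, by 0.045 to 0.35 log2. With array weights the Hk2 value was -0.056.

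The other hexokinase gene Hk1 had a log2 fold change of -0.038, and Gpi1, which encodes the enzyme that isomerises glucose phosphate to fructose phosphate, had 0.011. The 3 phosphofructokinase genes, whose products make the committed step, had 0.028 (Pfkl), -0.011 (Pfkm) and 0.20 (Pfkp), and Pfkfb3, whose product makes an activator of that step, had 0.057. The aldolase genes Aldoa and Aldoc had -0.069 and -0.16, and Tpi1, the triosephosphate isomerase gene, had -0.065. Each of these 9 genes had overlapping groups and an interval that included 0. Of the 5 enzyme genes of the lower part of the pathway, Gapdh, Pgam1 and Eno1 were on the negative side at -0.018, -0.12 and -0.12, while Pgk1 and Pkm were on the positive side. The product of Pgam1 shifts a phosphate within phosphoglycerate, and that of Eno1 dehydrates it. Of the enzymes, the most tightly bounded was Gapdh, which had 12.66, 12.72 and 12.71 in floxed arrays and 12.72, 12.69 and 12.74 in control arrays. Its 95% interval, as a linear ratio of floxed to control, was 0.872 to 1.12. That value rested on 1 probe set, because 8 others were annotated to Gapdh together with further genes.

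Pgk1, whose product makes the first ATP of the pathway, had 10.97, 10.87 and 10.93 in floxed arrays and 10.76, 10.86 and 10.70 in control arrays. The lowest floxed and the highest control array almost met (log2 fold change 0.15, SE 0.11, 95% interval -0.094 to 0.39, limma adjusted p = 0.999). Of its 15 probe sets 13 were higher in floxed arrays. On 5 of them the groups did not overlap, beside 6.46% of all probe sets in that direction. The 15 include 2 pairs of probe sets with the same values on all 6 arrays, so they are not separate measurements. With each identical pair counted once, the Pgk1 log2 fold change was again 0.15, and with array weights it was 0.073.

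Pkm, the pyruvate kinase gene whose product makes the last ATP of the pathway, had 10.90, 10.98 and 11.11 in floxed arrays and 10.76, 10.76 and 10.58 in control arrays. All floxed arrays were higher (log2 fold change 0.30, SE 0.12, 95% interval 0.038 to 0.56, limma adjusted p = 0.999). The single probe sets did not repeat this separation: 5 of 7 were higher and 2 lower, by -0.067 to 0.30 log2, and the groups overlapped on all 7. Averaging its probe sets gave a Pkm value of 0.14, and a filter at the 75th percentile gave 0.18. The median fell on the same probe set on every array but control replicate 1. On that probe set control replicate 1 had 11.03, between the floxed values of 10.90, 10.98 and 11.11, so the groups overlapped there. Isoforms M1 and M2 of the gene differ by one exon, and the probe sets were not placed on exons here.

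**Figure D2:**
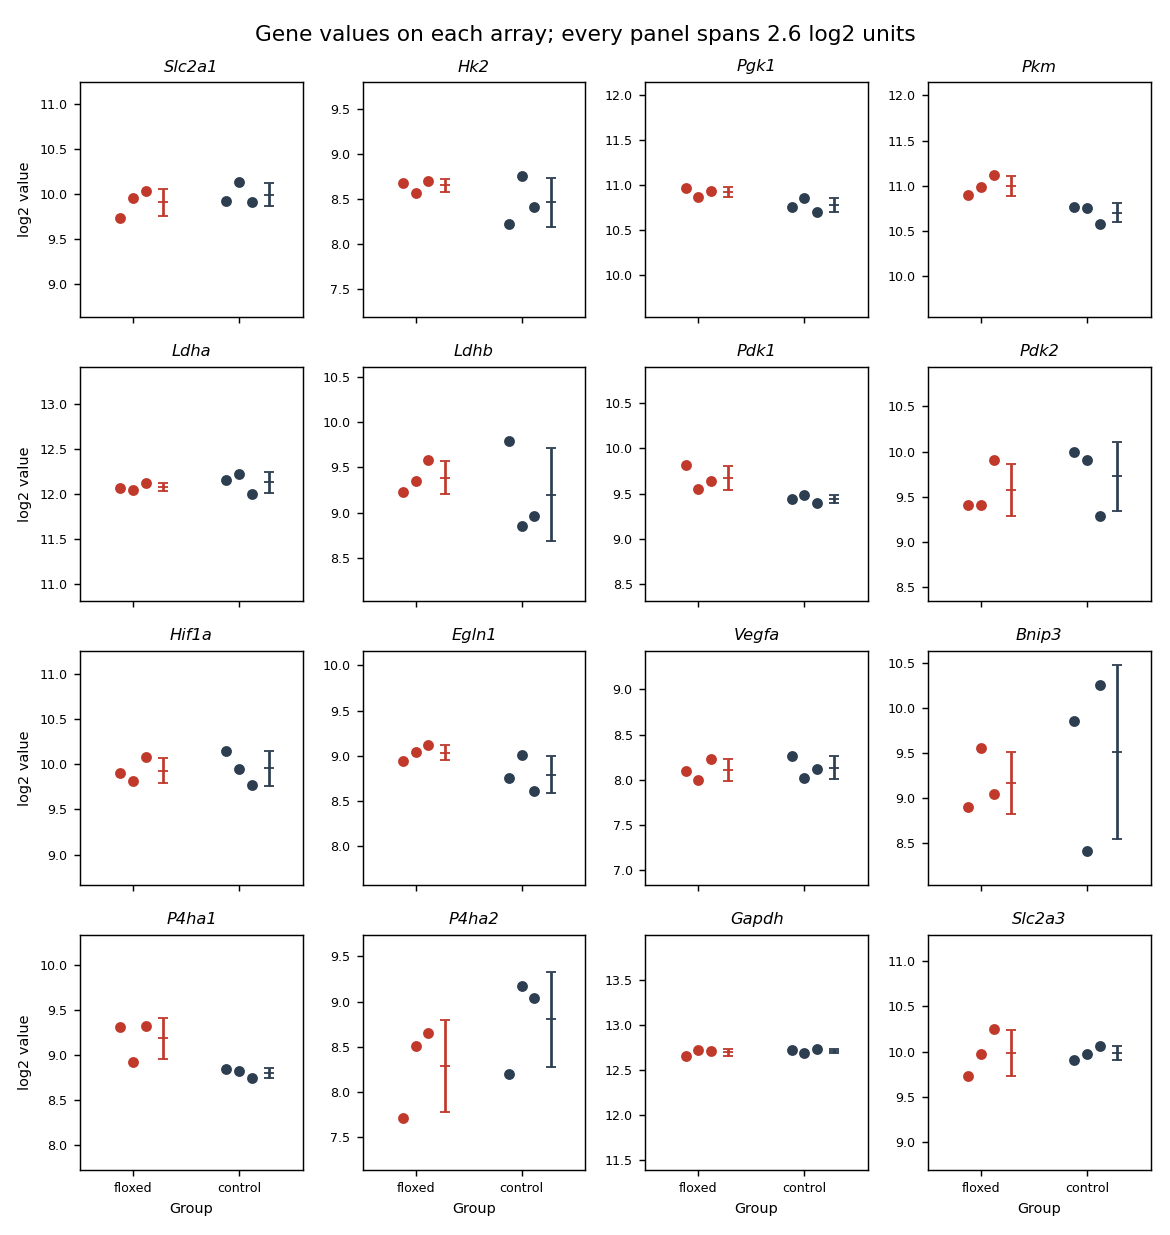
Log2 gene values of 16 members on each array, floxed left and control right, with a bar for the mean and SD of 3 arrays beside the points; all panels span the same range. Floxed points lie above all control points for Pgk1, Pkm, Pdk1 and P4ha1, and Bnip3, P4ha2 and Ldhb show the widest spread between arrays of one group.

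Lactate dehydrogenase converts pyruvate to lactate, with a muscle-type subunit from Ldha and a heart-type subunit from Ldhb. Ldha had 12.07, 12.04 and 12.12 in floxed arrays and 12.16, 12.22 and 12.001 in control arrays. The floxed arrays lay inside the range of the controls (log2 fold change -0.050, SE 0.097, 95% interval -0.26 to 0.16, limma adjusted p = 0.999). Ldhb had 9.23, 9.35 and 9.58 in floxed arrays and 9.79, 8.85 and 8.96 in control arrays. Here too the floxed arrays lay inside the control range, which spanned almost a whole log2 unit (log2 fold change 0.19, SE 0.23, limma adjusted p = 0.999). Without control replicate 1 the Ldhb value was 0.49, and without control replicate 2 it was 0.015. Slc16a3, the gene of the lactate exporter MCT4, had a log2 fold change of -0.15 with overlapping groups.

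The 4 pyruvate dehydrogenase kinase genes differed in direction. Pdk1, a HIF target, had 9.82, 9.55 and 9.64 in floxed arrays and 9.44, 9.48 and 9.40 in control arrays. All floxed arrays were higher (log2 fold change 0.23, SE 0.13, 95% interval -0.066 to 0.53, limma adjusted p = 0.999). The groups did not overlap on 5 of 12 probe sets, all higher, beside 6.46% of all probe sets in that direction. These probe sets make up the gene value, so they are not separate support for it. The log2 fold change kept its sign in the 16 alternative settings, from 0.15 to 0.29. Pdk2, a kinase of wide tissue distribution, had 9.41, 9.41 and 9.90 in floxed arrays and 9.99, 9.90 and 9.29 in control arrays. Its groups overlapped (log2 fold change -0.16, SE 0.21, limma adjusted p = 0.999), although all 12 probe sets were lower in floxed arrays in their group means. Without control replicate 3 the Pdk2 value was -0.37, and without control replicate 1 it was -0.023. Pdk3 had 0.031, and Pdk4, a kinase induced by fasting and fatty acids, had 0.13 from 1 probe set above the filter of 11.

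Hif1a encodes the oxygen-regulated subunit of HIF-1, which is controlled mainly by protein stability, so its RNA does not measure the factor's activity. It had 9.90, 9.81 and 10.08 in floxed arrays and 10.15, 9.95 and 9.77 in control arrays. The floxed arrays lay inside the control range (log2 fold change -0.023, SE 0.14, 95% interval -0.34 to 0.30, limma adjusted p = 0.999). Single Hif1a probe sets ran from -0.48 to 0.85 log2. Of the 16, 2 did not overlap between the groups, both higher in floxed arrays, beside 6.46% of all probe sets in that direction. Egln1, the gene of the main oxygen-sensing prolyl hydroxylase PHD2, had 8.94, 9.04 and 9.12 in floxed arrays and 8.75, 9.01 and 8.61 in control arrays. Only floxed replicate 1 was below the highest control (log2 fold change 0.24, SE 0.16, 95% interval -0.10 to 0.59, limma adjusted p = 0.999), and with a filter at the 75th percentile the value was -0.026. Egln3, the gene of the hydroxylase PHD3 and itself a HIF target, was on the other side at -0.18, with 8 of 9 probe sets lower.

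The further HIF targets were 8 genes, of which 6 had a value, 2 on the positive and 4 on the negative side, with a median log2 fold change of -0.042. With Slc2a1, Slc16a3, Pdk1, Pfkfb3 and Egln3 added, all of them also HIF targets, 4 were positive and 7 negative, with a median of -0.059. Left out were Ldha and the glycolytic enzyme genes other than Pfkfb3, so these counts depend on which targets were added. All genes had a median of 0.018. The median of the 6 genes was smaller in size than the SD of the list's array medians within a group, 0.12 log2. That SD is not a standard error of the group difference, and no test was run on the list. No such SD was computed for the wider list. Vegfa, the gene of the vascular growth factor, had 8.10, 7.99 and 8.23 in floxed arrays and 8.26, 8.01 and 8.12 in control arrays, and the groups overlapped (log2 fold change -0.025, SE 0.17, 95% interval -0.40 to 0.35, limma adjusted p = 0.999).

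P4ha1, a collagen prolyl hydroxylase gene, had the largest positive log2 fold change among the 33 members. Its log2 values were 9.31, 8.93 and 9.32 in floxed arrays and 8.84, 8.83 and 8.74 in control arrays. All floxed arrays were higher (log2 fold change 0.38, SE 0.16, 95% interval 0.035 to 0.73, limma adjusted p = 0.999). Of its 15 probe sets 14 were higher in floxed arrays, but the groups were apart on 1 of them, beside 6.46% of all probe sets in that direction. The log2 fold change stayed positive in the 16 alternative settings, from 0.20 with a filter at the 75th percentile to 0.51 without floxed replicate 2, and was 0.21 with the mean of the probe sets. P4ha2, the gene of a second form of this enzyme, had 7.71, 8.51 and 8.66 in floxed arrays and 8.20, 9.17 and 9.04 in control arrays. Its groups overlapped (log2 fold change -0.51, SE 0.30, 95% interval -1.17 to 0.14, limma adjusted p = 0.999). That value rested on 1 probe set of 17, and with all 17 it was 0.36. Without floxed replicate 1 it was -0.22, and without control replicate 1 it was -0.81.

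Bnip3 and Bnip3l encode mitophagy receptors that HIF induces. Bnip3 had 8.90, 9.55 and 9.05 in floxed arrays and 9.85, 8.41 and 10.25 in control arrays. The controls had an SD of 0.96, and the floxed arrays lay inside their range (log2 fold change -0.34, SE 0.38, 95% interval -1.18 to 0.51, limma adjusted p = 0.999). Of its 3 probe sets above the filter, one had 8.90, 9.55 and 9.05 in floxed arrays and 9.85, 8.41 and 10.30 in control arrays. Another had 10.12, 10.08 and 10.28 in floxed arrays and 10.08, 10.29 and 10.25 in control arrays, so the wide spread was not shared by all. Without control replicate 2 the Bnip3 value was -0.88, without control replicate 3 it was 0.033, and with array weights it was 0.55. Bnip3l, which also clears mitochondria from maturing red cells, had 11.92, 11.94 and 12.11 in floxed arrays and 12.37, 11.93 and 11.86 in control arrays, with a log2 fold change of -0.059 and overlapping groups. Ndrg1, a hypoxia-induced gene linked to differentiation, had 0.069.

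Adm, the gene of the vasodilator peptide adrenomedullin, and Ankrd37, an ankyrin repeat gene induced by HIF-1, had 0 of 4 and 0 of 3 probe sets above the filter. Over all their probe sets Adm averaged 5.84 ± 0.33 in floxed arrays and 6.02 ± 0.19 in control arrays (SD, n = 3 each), and Ankrd37 averaged 6.99 ± 0.26 in floxed arrays and 7.01 ± 0.23 in control arrays (SD, n = 3 each). Both differences were smaller than the SD of the floxed arrays.

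**Figure D3:**
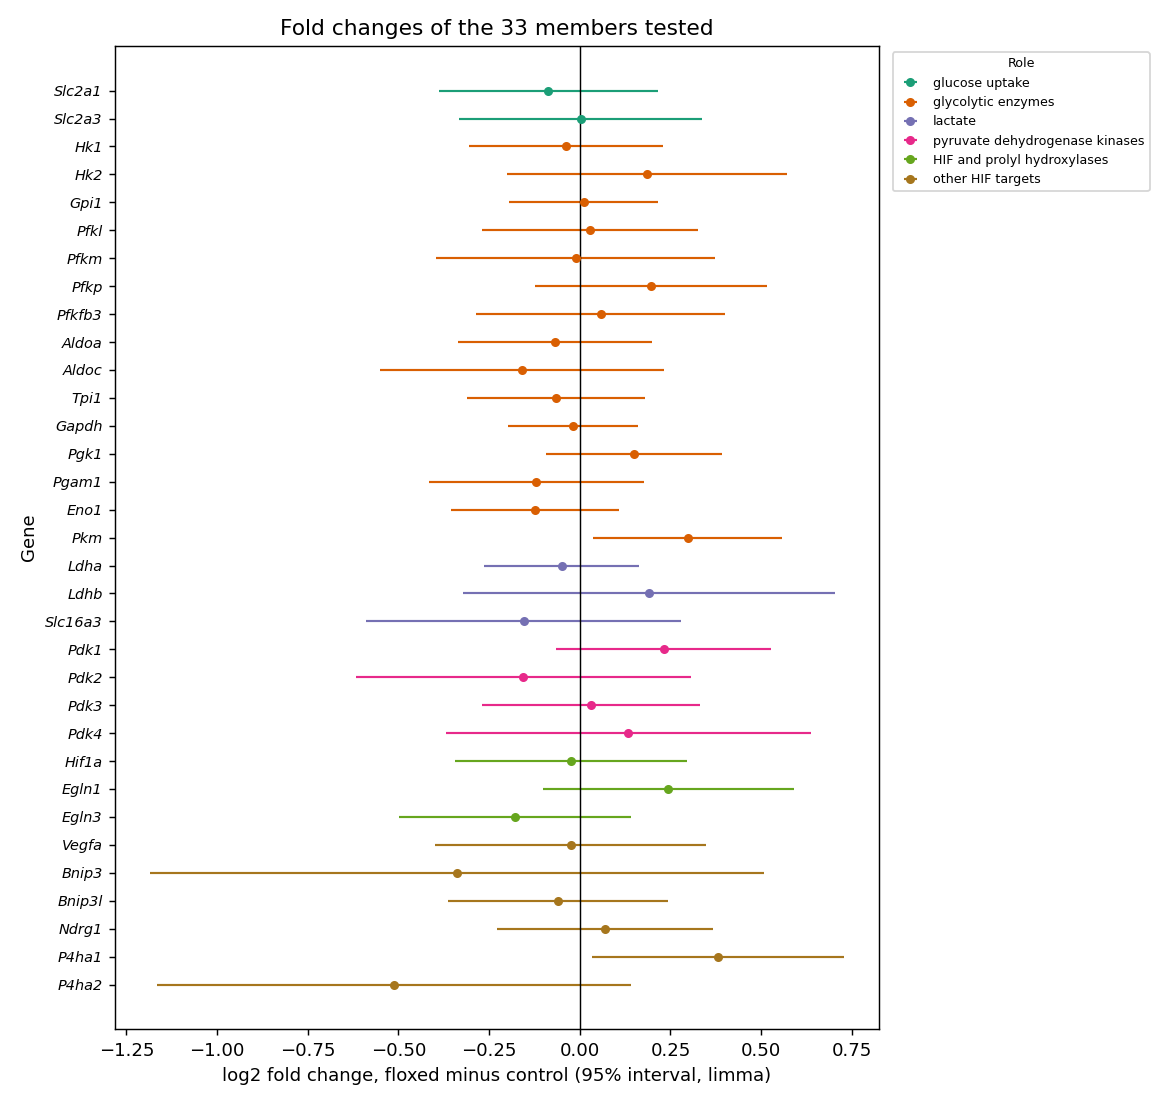
Log2 fold change, floxed minus control, of the 33 members with a value, with 95% confidence intervals from limma, coloured by role. The intervals of Pkm and P4ha1 lie above 0 before adjustment, the other 31 include 0, and those of Bnip3 and P4ha2 reach below -1.

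Single probe sets were tested to see whether part of a transcript changed. Of the 327 probe sets of members above the filter, 0 passed in limma (smallest adjusted p = 0.975), beside 0.00414% of all 120788 probe sets, all 5 of them of Ctnnb1. At an unadjusted p under 0.05 there were 20 (6.12%), 16 higher and 4 lower in floxed arrays, beside 4.35% of all probe sets. The groups did not overlap on 35 (10.7%), 28 higher and 7 lower, beside 9.45% of all probe sets (6.46% higher and 2.98% lower). A test of whether the probe sets of one gene change differently, diffSplice of limma, called 0 of 30 members with at least 2 probe sets, beside 0.0169% of all 11831 genes (2 genes). At an unadjusted p under 0.05 it had 0 members, beside 1.54% of all genes, a share at which 0 of 30 says nothing about the members. The smallest unadjusted p was that of Hk1 (0.143, diffSplice adjusted p = 1), whose 19 probe sets ran from -0.49 to 0.37 log2.

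**Figure D4:**
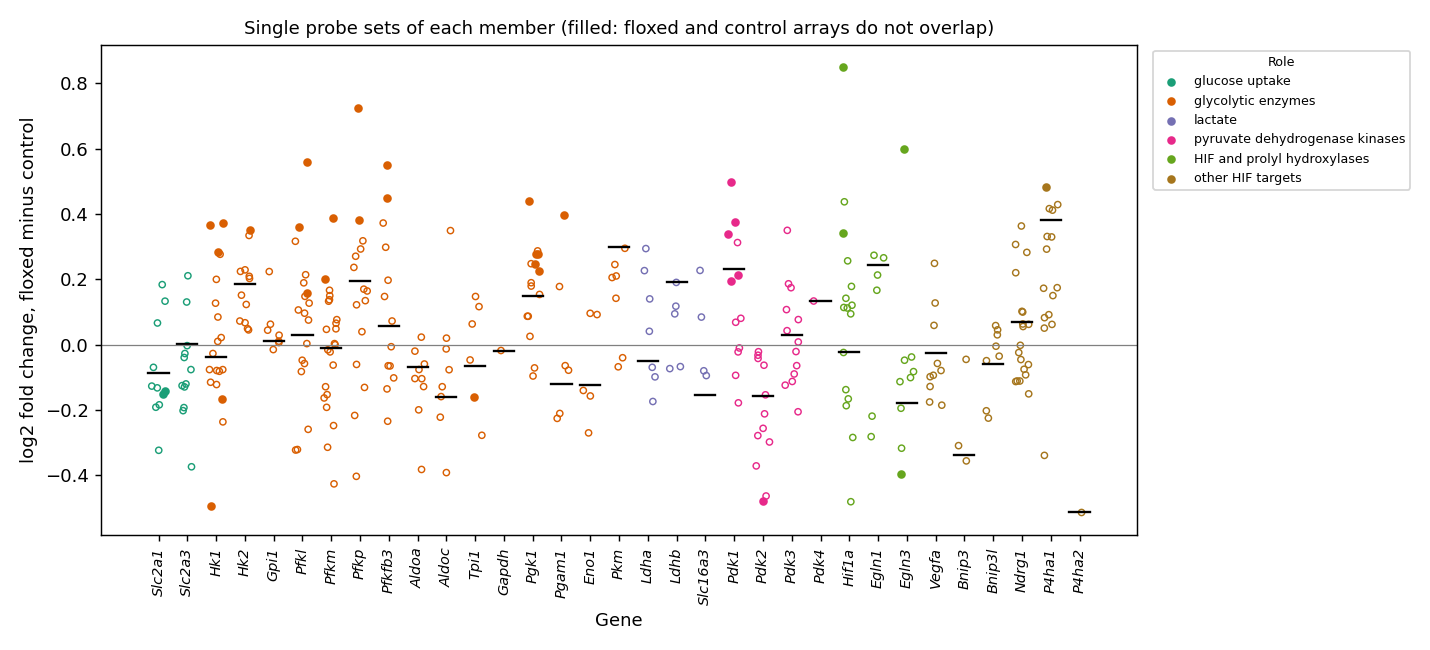
Log2 fold change, floxed minus control, of each of the 327 probe sets of members above the filter, one column a gene and coloured by role; filled points are probe sets whose floxed and control arrays do not overlap, and the black line is the gene value. Within one gene the points often fall on both sides of 0, as for Hk1 and Hif1a, while all points of Hk2 lie above 0 and all points of Pdk2 below it.

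The members differed more between control arrays than between floxed arrays, as did genes at large. The SD was smaller in floxed than in control arrays for 24 of 33 members (72.7%), beside 73.6% of all genes. The median SD of a member was 0.12 log2 in floxed and 0.15 log2 in control arrays, and that of all genes 0.14 and 0.23. Control replicate 3 held the lowest value for 15 of the 33 members (45.5%), beside 34.7% of all genes. Control replicate 2 held the highest value for 11 members (33.3%), beside 20.9% of all genes. The median deviation of the members from their own means was -0.050, -0.032 and 0.093 log2 in floxed arrays and 0.056, 0.063 and -0.12 in control arrays, so both groups held arrays above and below the mean.

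Markers of other cell types also varied between arrays of a group. The median deviation of 12 granulocyte genes was -0.55, -0.39 and 0.31 log2 in floxed arrays and 0.49, 0.65 and -0.50 in control arrays. In their group means 11 of the 12 were lower in floxed arrays, beside 45.8% of all genes. Floxed replicates 1 and 2 and control replicate 3 lay below the mean both in this list and over the members. This was not particular to granulocytes. The same arrays lay below it for erythroid, megakaryocyte, B cell, T and NK cell and stem cell genes. For macrophages, CD34 positive progenitors and stroma and endothelium, control replicate 3 lay above it. The granulocyte genes had a mean level of 8.96 to 9.78 in floxed and 9.04 to 10.16 in control arrays. All 11 erythroid genes measured, of 14 listed, were lower in floxed arrays in their group means, beside 45.8% of all genes. Their mean level was 8.78 to 9.41 in floxed and 9.18 to 9.59 in control arrays. The 9 B cell genes tested of 10 listed had a mean level of 8.77 to 9.49 in floxed and 8.17 to 9.96 in control arrays. Mean levels were 8.41 to 8.54 in floxed and 8.45 to 8.73 in control arrays for macrophages, and 8.66 to 9.003 and 8.76 to 9.004 for megakaryocytes. For T and NK cells, with 5 of 9 listed genes tested, they were 8.26 to 8.76 in floxed and 8.67 to 8.76 in control arrays. For stroma and endothelium, with 7 of 8 tested, they were 8.40 to 8.64 and 8.33 to 8.81. Listed genes with no probe set above the filter are left out, so these are not levels of the whole lists. In limma 0 genes of these 7 lists passed, while at an unadjusted p under 0.05 there were 2 of 12 granulocyte, 3 of 11 erythroid and 0 of 9 B cell genes, beside 3.7% of all genes. Genes of CD34 positive progenitors, the cells next to the gate, had a mean level of 10.95 to 10.99 in floxed and 11.04 to 11.22 in control arrays. Of the 5 genes 3 were lower, beside 45.8% of all genes. For 2 of these all floxed arrays lay below all control arrays, beside 2.87% of all genes. In limma 0 of the 5 passed, and 2 of 5 had an unadjusted p under 0.05, beside 3.7% of all genes. The lowest log2 value of any probe set was 2.44, so no gene could be at 0, and these levels do not show which cells were present. The part of these cells in the values of the members was not tested.

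Further genes of the same pathways, given as lists, also held 0 genes past the adjusted threshold in limma, beside 0% of all genes. At an unadjusted p under 0.05 there were 2 of 23 isozyme genes, 1 of 19 genes of the tricarboxylic acid cycle and 1 of 15 regulators of HIF, beside 3.7% of all genes. Of 23 other glycolytic isozymes and glucose entry genes tested of 27 listed, 13 were positive and 10 negative, with a median log2 fold change of 0.013. Pklr, the pyruvate kinase gene of liver and red cells, had 8.36, 8.30 and 9.21 in floxed arrays and 9.16, 9.58 and 9.30 in control arrays, a log2 fold change of -0.72 with an SE of 0.24 (limma adjusted p = 0.999). Bpgm, whose product makes the red cell metabolite bisphosphoglycerate, had 8.54, 8.29 and 8.66 in floxed arrays and 8.06, 8.19 and 7.87 in control arrays, a log2 fold change of 0.46 with an SE of 0.18 (limma adjusted p = 0.999). Both belong to red cell glycolysis, and their values went in opposite directions.

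Genes of pyruvate entry to mitochondria were positive for 9 of 11, with a median log2 fold change of 0.061. Most of these act on pyruvate or on pyruvate dehydrogenase, and only Mpc1 (-0.12) and Mpc2 (0.024) encode the carrier itself. Genes of the tricarboxylic acid cycle were positive for 14 of 19, with a median of 0.11. All genes had a median of 0.018 and 54.2% positive. Dld and Pdhx, parts of the pyruvate dehydrogenase complex, had 0.23 and 0.26. Sucla2, a subunit gene of succinyl-CoA ligase, had 9.20, 9.01 and 9.43 in floxed arrays and 9.003, 8.69 and 8.69 in control arrays, with all floxed arrays higher (log2 fold change 0.42, SE 0.17, limma adjusted p = 0.999). Mdh1, the cytosolic malate dehydrogenase gene, had 0.28. Control replicate 3 had the lowest median deviation of the 6 arrays in both lists, -0.13 and -0.18 log2.

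Of 15 tested regulators of HIF, 8 were positive and 7 negative, with a median of 0.0058. Epas1, the gene of HIF-2alpha, had 7.98, 7.42 and 8.20 in floxed arrays and 8.31, 8.39 and 8.81 in control arrays. All floxed arrays were lower (log2 fold change -0.64, SE 0.23), and the change did not pass (limma adjusted p = 0.999). Rbx1, a subunit gene of the ubiquitin ligase that marks HIF, had 0.33. Of 26 additional HIF targets tested of 33 listed, 11 were positive and 15 negative, with a median of -0.0039. Fam162a, a hypoxia-induced mitochondrial gene, had 0.31, and Plin2, a lipid droplet gene, had -0.25, both with overlapping groups.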

How the data were processed

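Per the labels' protocols, RNA of sorted cells was labelled with biotin and hybridised to 6 Affymetrix arrays, 3 a group. The authors deposited log2 expression values of 241576 probe sets, from 2.44 to 14.53, with array medians of 7.56 to 7.65. MAS5 stands in the submitters' processing notes, its role and version unnamed. Other steps are not given in the sources used here. A log base of 2 was inferred from the range of the values.

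No further normalization was applied. Probe sets with a mean of at least 7.60, the median over probe sets, were kept, 120788 in all. A platform annotation gave 1 gene to 110361 of these, and their median per gene and array gave 14586 genes. Symbols were updated through RefSeq (GRCm38.p6): of 20416, 17621 were current, 2742 were updated (among them Pkm) and 53 matched nothing. The package limma 3.58.1 (R 4.3.3, eBayes with trend) gave two-sided tests of genes and of probe sets. Their p-values were adjusted by Benjamini-Hochberg over everything tested, at a threshold of 0.05, and diffSplice compared probe sets within genes. The tests were tried on simulated data, where diffSplice, which assumes 1 spread per gene, made too many false calls once probe sets differed in spread. Version 1.17.8 of data.table read the files.

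Members and lists were chosen with earlier results of these data known. Full statistics are given for the 2 members with the smallest p in each role (1 in roles of under 4 members), for the textbook members Slc2a1, Hk2, Pkm, Ldha, Pgk1, Pdk1, Hif1a, Vegfa and Bnip3, and for Ctnnb1. From each further list the 2 genes with the smallest p are named. Array values of Slc2a3, Gapdh and Bnip3l, and the promoters shown, were chosen after values were seen. Replicate numbers were not taken to pair the arrays in the main fit. With group means taken out, same-numbered arrays had correlations across genes of 0.20, -0.0036 and -0.24. Arrays of different number were not set beside these, so the values cannot decide whether arrays were paired. Precision is limited by the number of arrays.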

Additional observations from a re-analysis of the deposited data

How the results depend on the processing

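In limma 0 members passed in any of 16 alternatives, with a smallest adjusted p of 0.0701 (P4ha2, array weights). Of 526 member values, 465 kept their sign and 61 did not, in 20 genes. The cause was not tested. Reversed log2 fold changes were, with quantile normalization, Slc2a3 -0.029, Gpi1 -0.032 and Pfkl -0.0040, and with equal array medians Slc2a3 -0.028, Gpi1 -0.020, Pfkl -0.0024 and Pdk3 -9.8e-05. Without a filter they were Hk1 0.29, Slc16a3 0.088, Pdk3 -0.0046 and P4ha2 0.36. With a filter at the 75th percentile they were Pfkl -0.016, Pfkm 0.076, Ldha 0.036, Ldhb -0.067, Slc16a3 0.23, Pdk3 -0.0026 and Egln1 -0.026. With the mean of probe sets they were Slc2a3 -0.079, Hk1 0.014, Ldha 0.052, Slc16a3 0.035 and Hif1a 0.086. With array weights they were Slc2a3 -0.00043, Hk2 -0.056, Pfkl -0.049, Pfkfb3 -0.010, Gapdh 0.0059, Pdk4 -0.17, Vegfa 0.041, Bnip3 0.55 and Bnip3l 0.030. Leaving out single replicates gave ranges across 0 for Slc2a3 (-0.13 to 0.13), Hk1 (-0.10 to 0.047), Gpi1 (-0.030 to 0.065), Pfkl (-0.062 to 0.089), Pfkm (-0.17 to 0.11), Pfkfb3 (-0.0062 to 0.14), Gapdh (-0.031 to 0.0031), Slc16a3 (-0.26 to 0.0080), Pdk3 (-0.042 to 0.14), Pdk4 (-0.086 to 0.32), Hif1a (-0.12 to 0.073), Vegfa (-0.088 to 0.039), Bnip3 (-0.88 to 0.033), Bnip3l (-0.16 to 0.099) and Ndrg1 (-0.025 to 0.16).

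Genes called in limma, 0 as reported, were 2 without a filter, 1 with the mean of probe sets, 404 with array weights (2.77%), and 0 to 2 on leaving out single replicates (2 without control replicate 1). Probe sets called, 5 as reported, were 0 with the 75th percentile filter (log2 9.20), which removed all 5 before the test, since their means over the 6 arrays were 7.89 to 9.18. Genes called by diffSplice, 2 as reported, were 4 without a filter, 0 with the 75th percentile filter, 13 with array weights, 1 with the replicate number as a block, and 1 to 251 on leaving out single replicates (251 without control replicate 1). With the replicate block limma called 0 genes, and no member's call changed. Counting identical probe sets once was chosen after seeing the data. The median of all genes was 0.018, against -0.019 with quantile normalization.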
